A study of Mus musculus with 18 samples.

Results

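The genes described here are 10 members of the ATF4 stress response and of the serine and mitochondrial folate pathways: *Atf4*, *Ddit3*, *Trib3*, *Atf3*, *Chac1*, *Asns*, *Phgdh*, *Psat1*, *Shmt2* and *Mthfd2*. They were taken by matching the Ensembl identifiers of the deposited expected-count table to these symbols. All 10 were found among its 51912 genes, and all 10 passed the filter on low counts that left 15710 genes to test. RNA was sequenced from primary mouse embryonic fibroblasts (MEFs) at passage 1, grown in 5% oxygen and 15% serum. The embryos came from C57BL/6 mice carrying *Pole4* and *Trp53* null alleles, and no drug, starvation or other stress is named for any group. *Pole4* encodes an accessory subunit of DNA polymerase epsilon, and *Trp53* encodes the transcription factor TRP53. *Pole4*+/+ and *Pole4*-/- were each combined with *Trp53*+/+, *Trp53*+/- and *Trp53*-/-, which gave 6 genotypes of 3 libraries, and the alleles came through the germline. The labels do not say which litter or culture each library came from, so that p-values measure the spread between these libraries only. The comparisons ask how loss of *Pole4* and loss of *Trp53* bear on the RNA of these genes.

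In the integrated stress response, kinases activated by amino acid shortage, endoplasmic reticulum stress, double-stranded RNA or heme shortage phosphorylate the translation factor eIF2alpha. General protein synthesis then falls while the *Atf4* message is translated more efficiently, so the RNA level of *Atf4* is not a measure of the amount or activity of its protein. ATF4 is a bZIP transcription factor that binds CARE elements (C/EBP-ATF response elements) and raises the transcription of genes for amino acid supply, among them *Asns*, *Phgdh*, *Psat1*, *Shmt2* and *Mthfd2*. Under persistent stress it also raises *Ddit3*, *Trib3*, *Atf3* and *Chac1*. The serine enzymes feed carbon into folate metabolism, which dividing fibroblasts use to make nucleotides.

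The promoters of the members were read from RefSeq sequences of GRCm38.p6, as windows from 250 bases before to 50 bases after each annotated start, and all 10 members had a window. The core of the CARE element, TGATGNAA or its complement TTNCATCA, was found in the windows of 4 members, *Trib3*, *Atf3*, *Chac1* and *Asns*, against 3.97% of the 32851 windows in the table. The stretches of 30 bases around these matches are shown because ATF4 is known to bind this element, with the core in capitals. They lie on the minus strand at chr2:152344028-152344057 (*Trib3*), chr1:191183425-191183454 (*Atf3*) and chr6:7693214-7693243 (*Asns*), and on the plus strand at chr2:119351038-119351067 (*Chac1*). The *Trib3* match lies just after the start and the other matches before it.
Trib3: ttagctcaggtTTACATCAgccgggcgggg
Atf3: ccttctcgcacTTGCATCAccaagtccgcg
Chac1: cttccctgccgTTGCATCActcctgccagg
Asns: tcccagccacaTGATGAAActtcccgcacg

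These letters were not found in the windows of *Atf4*, *Ddit3*, *Phgdh*, *Psat1*, *Shmt2* or *Mthfd2*. The 120 bases before the RefSeq start are shown for the 4 enzymes whose RNA was higher in *Pole4*-/- *Trp53*-/- MEFs (below), with the CCAAT box, a common promoter element bound by NF-Y, in capitals on either strand. CCAAT was searched after the sequences had been seen, and 37.4% of all windows hold it, 11.7% at least 2 times and 3.37% at least 3 times. All 4 stretches are on the minus strand, at chr3:98339970-98340089 (*Phgdh*), chr19:15925060-15925179 (*Psat1*, the more upstream of its 2 RefSeq starts), chr10:127522445-127522564 (*Shmt2*) and chr6:83317605-83317724 (*Mthfd2*).
Phgdh: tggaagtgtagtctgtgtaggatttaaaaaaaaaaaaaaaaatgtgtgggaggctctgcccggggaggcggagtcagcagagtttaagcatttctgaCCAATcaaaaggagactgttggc
Psat1: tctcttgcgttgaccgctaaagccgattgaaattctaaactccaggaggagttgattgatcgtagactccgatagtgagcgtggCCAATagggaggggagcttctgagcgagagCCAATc
Shmt2: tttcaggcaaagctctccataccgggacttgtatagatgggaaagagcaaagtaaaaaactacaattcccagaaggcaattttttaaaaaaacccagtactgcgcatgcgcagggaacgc
Mthfd2: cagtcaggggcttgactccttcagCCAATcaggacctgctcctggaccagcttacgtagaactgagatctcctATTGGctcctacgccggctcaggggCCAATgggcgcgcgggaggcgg

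Counts per window were 3 CCAAT boxes in *Psat1*, *Mthfd2* and *Chac1*, 2 in *Phgdh* and *Atf4*, 1 in *Ddit3* and *Atf3*, and none in *Shmt2*, *Asns* and *Trib3*. The other *Psat1* window held none either. The RefSeq starts of *Atf3*, *Psat1* and *Mthfd2* used here lie 34706, 22278 and 8304 bases inside the GENCODE gene, which covers longer transcripts, and which start these MEFs used was not measured. No binding was measured in these libraries, and a match is a description of the letters only.

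Library totals ran from 9535971 to 35319918 counts, and ribosomal RNA genes took 0.968% to 42.5% of them. By *Xist* counts, 11 libraries were female and 7 male: all *Pole4*+/+ *Trp53*+/- libraries were male, all *Pole4*+/+ *Trp53*+/+ and *Pole4*+/+ *Trp53*-/- libraries female, and the *Pole4*-/- genotypes mixed. *Trp53* stood between 86.6 and 96.1 CPM (counts set against the library's total after edgeR's trimmed-mean scaling, TMM) in *Pole4*+/+ *Trp53*+/+ and between 8.65 and 12.1 CPM in the 6 *Trp53*-/- libraries. In *Pole4*-/- *Trp53*+/+ it stood lower, between 64.2 and 72.7 CPM, with the *Trp53*+/- libraries between 48.4 and 59.6 CPM. *Pole4* was lower but not absent in *Pole4*-/- *Trp53*+/+ MEFs, at 9.26 to 11.2 CPM against 16.3 to 22.9 CPM in *Pole4*+/+ *Trp53*+/+ MEFs. *Cdkn1a*, the TRP53 target that encodes the cell cycle inhibitor p21, stood at 5.17 to 12.03 CPM in the *Trp53*-/- libraries and at 232 CPM or more in the *Trp53*+/+ libraries. Fibroblast markers (9 of 9 tested) summed to 9862 to 20351 CPM, most of it from *Col1a1*, *Col1a2* and *Vim*, each above 2112 CPM in every library, while *Dcn* and *Lum* had medians of 6.27 and 4.66 CPM, below the neuronal marker *Tubb3* (39.4 to 74.1 CPM). By contrast, none of 10 erythroid markers passed the filter, and *Gata1* and *Slc4a1* were at 0 in all 18. Of 10 macrophage, 10 endothelial and 10 epithelial markers, 10, 5 and 3 passed it. *Csf1r*, *Kdr* and *Krt18* of these lists reached 8.89, 4.71 and 15.1 CPM. In such bulk libraries, fewer cells of a type and less RNA per cell cannot be told apart.

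Per kilobase of exon, *Atf4* had the highest mean of the members in all 6 genotypes and *Atf3* the lowest, although *Atf4* and *Phgdh* overlapped in 4 genotypes, the exceptions being *Pole4*+/+ *Trp53*+/- and *Pole4*-/- *Trp53*+/+. In *Pole4*+/+ *Trp53*+/+ MEFs, levels were 89.02 ± 7.78 CPM per kilobase for *Atf4*, 83.6 ± 8.84 for *Phgdh*, 67.7 ± 7.98 for *Psat1*, 61.6 ± 8.00 for *Asns*, 42.7 ± 4.37 for *Shmt2* and 27.5 ± 2.70 for *Mthfd2* (SD, n = 3). The stress effectors were lower on this scale, at 14.5 ± 2.62 for *Ddit3*, 13.6 ± 3.83 for *Trib3*, 12.1 ± 2.20 for *Chac1* and 1.495 ± 0.427 for *Atf3*. In this order the 3 libraries of *Atf4* overlapped with those of *Phgdh*, those of *Phgdh* with *Psat1*, *Psat1* with *Asns*, *Ddit3* with *Trib3* and *Trib3* with *Chac1*. The steps from *Asns* to *Shmt2*, *Shmt2* to *Mthfd2*, *Mthfd2* to *Ddit3* and *Chac1* to *Atf3* were larger than the spread. Among genotypes, the mean CPM of *Atf4*, *Atf3* and all 5 enzymes was lowest in *Pole4*-/- *Trp53*+/+ MEFs. *Ddit3*, *Trib3* and *Chac1* were lowest in *Pole4*-/- *Trp53*-/- MEFs. The highest mean was in *Pole4*+/+ *Trp53*+/- MEFs for 9 of the 10, the exception being *Ddit3*, highest in *Pole4*-/- *Trp53*+/- MEFs.

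**Figure D1:**
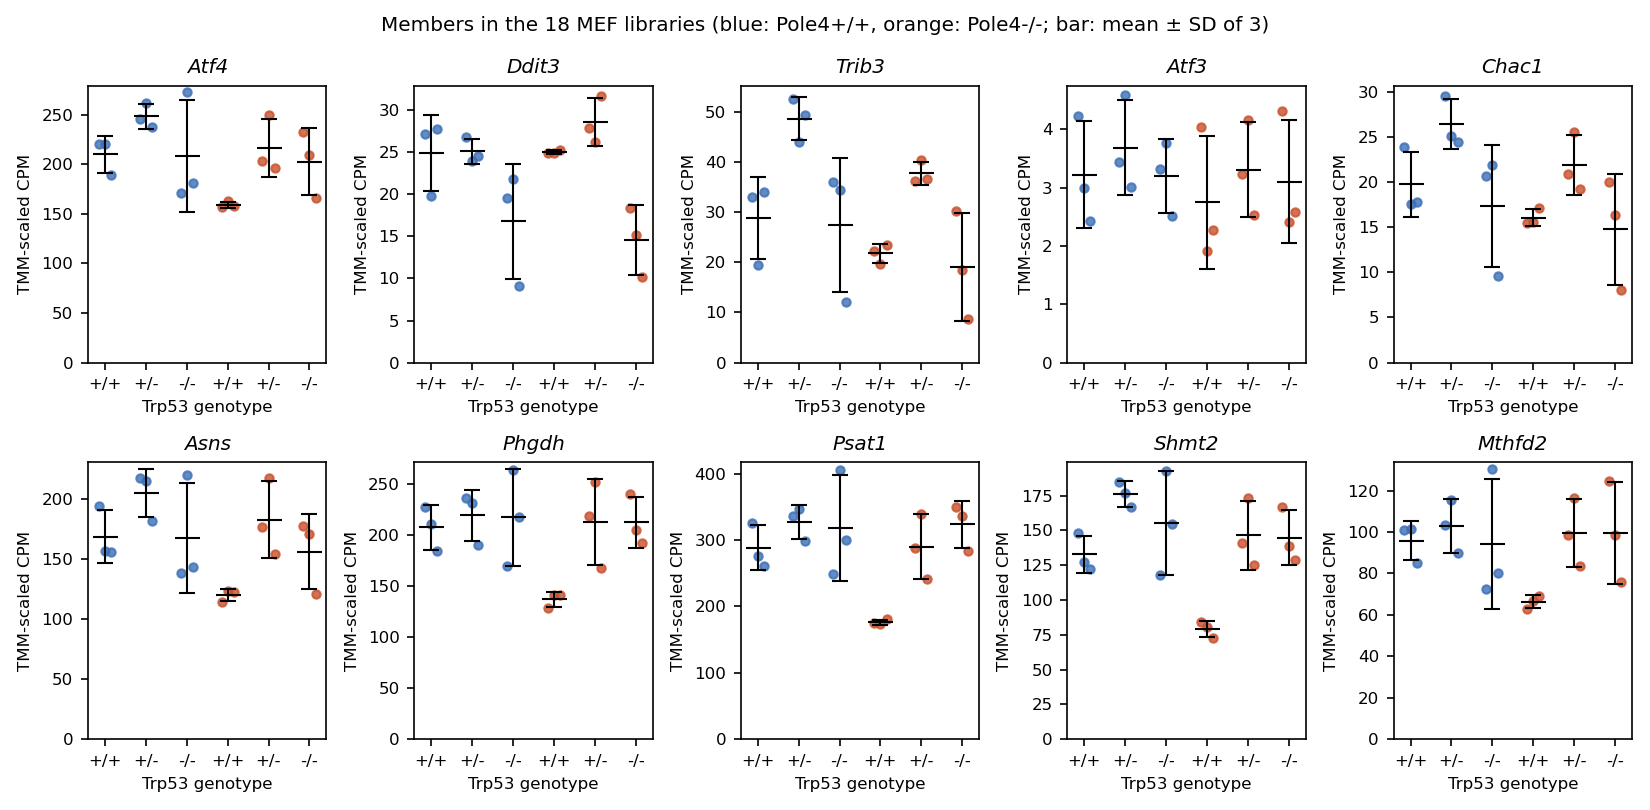
TMM-scaled CPM (y axis, from 0) of the 10 members in each of the 18 libraries, by *Trp53* genotype (x axis), with *Pole4*+/+ in blue and *Pole4*-/- in orange; points are libraries and bars the mean ± SD of 3. The 3 *Pole4*-/- *Trp53*+/+ libraries lie together at the low end for *Psat1* (173 to 181 CPM) and *Shmt2* (72.8 to 84.2 CPM), while *Ddit3* lies lower in the *Pole4*-/- *Trp53*-/- libraries (10.1 to 18.4 CPM) than in the *Pole4*-/- *Trp53*+/+ libraries (24.9 to 25.3 CPM).

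The first comparison asks what loss of *Trp53* did to these genes in *Pole4*-/- MEFs. The serine and folate enzymes *Psat1*, *Shmt2*, *Phgdh* and *Mthfd2* were higher in *Pole4*-/- *Trp53*-/- than in *Pole4*-/- *Trp53*+/+ MEFs, by 1.505-fold to 1.84-fold. *Ddit3*, which encodes the stress factor CHOP, was 1.71-fold lower. *Atf4*, *Asns*, *Trib3*, *Chac1* and *Atf3* did not pass edgeR's test. With 5 of 10 members called against 42.6% of all genes tested (21.8% higher and 20.8% lower), the members' share was near the background of this comparison, in which 6699 genes were called. DESeq2 also called 5 members (43.4% of all genes), and limma voom called 7, with *Atf4* and *Asns* added (51.7% of all genes).

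*Psat1*, the transaminase of serine synthesis, stood at 174, 173 and 181 CPM in the 3 *Pole4*-/- *Trp53*+/+ libraries and at 350.4, 337 and 283 CPM in the 3 *Pole4*-/- *Trp53*-/- libraries. The groups did not overlap, as was the case for 57.0% of all genes in this comparison (28.5% above and 28.5% below), with a fitted log2 fold change of 0.88 (SE 0.16) and an adjusted p of 0.00053 in edgeR's quasi-likelihood test. *Shmt2*, the mitochondrial enzyme that splits serine into glycine and a folate-bound carbon, stood at 84.2, 80.4 and 72.8 CPM against 167, 139 and 129 CPM. Again every *Trp53*-/- library lay above every *Trp53*+/+ library, and the fitted change was 0.87 on the log2 scale (SE 0.16, adjusted p 0.000573). *Phgdh*, which commits a glycolytic intermediate to serine, rose from 128, 141 and 141 CPM to 241, 205 and 192 CPM, or by 0.64 on the log2 scale (SE 0.16, adjusted p 0.00557). For *Mthfd2*, the mitochondrial folate dehydrogenase, the libraries stood at 63.0, 66.8 and 69.2 CPM and at 125, 98.4 and 75.7 CPM. The lowest *Mthfd2* library of the *Trp53*-/- group was only just above the *Trp53*+/+ group, and the fitted change was 0.59 on the log2 scale (SE 0.21, adjusted p 0.0316).

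*Ddit3* stood at 24.9, 25.0 and 25.3 CPM in *Pole4*-/- *Trp53*+/+ and at 18.4, 15.1 and 10.1 CPM in *Pole4*-/- *Trp53*-/- MEFs, without overlap (log2 fold change -0.78, SE 0.25, adjusted p 0.0222). *Atf4* itself stood at 157, 163 and 158 CPM against 233, 209.7 and 166 CPM. Its groups did not overlap either, but its log2 fold change of 0.35 (SE 0.16) had an adjusted p of 0.0892. For *Asns*, which makes asparagine, the log2 difference of 0.38 (SE 0.18) had an adjusted p of 0.104, with the lowest *Trp53*-/- library at 120.5 CPM inside the *Trp53*+/+ range of 114 to 123 CPM. *Trib3*, a pseudokinase that feeds back on ATF4, was spread from 8.62 to 30.2 CPM in the *Trp53*-/- libraries around 19.6 to 23.4 CPM in the *Trp53*+/+ libraries. *Chac1*, a glutathione-degrading enzyme, was similarly spread, from 8.02 to 19.96 CPM around 15.4 to 17.1 CPM. The log2 fold changes of *Trib3*, *Chac1* and *Atf3* were -0.18, -0.11 and 0.14, with SEs of 0.39, 0.30 and 0.33. For groups of 3 the smallest two-sided p that exact permutation of the libraries can reach is 0.1, and that was its value for each member whose groups did not overlap.

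Leaving out any 1 of the 3 *Pole4*-/- *Trp53*+/+ libraries left 3 members called instead of 5, the calls of *Mthfd2* and *Ddit3* being lost. The call of *Mthfd2* was also lost without *Pole4*-/- *Trp53*-/- replicate 1 (0.40) or replicate 2, and that of *Ddit3* without replicate 3 of the same genotype (-0.57). Over all genes, calls ran from 5108 to 7595 with 1 library left out, against 6699 with all libraries. Among female libraries only, which leaves 1 *Pole4*-/- *Trp53*+/+ library, no member was called (4.98% of all genes tested there were), while the log2 fold changes of *Psat1* and *Shmt2* were 0.86 and 0.81 (adjusted p 0.112 and 0.123). Fibroblast markers summed to 16327 to 20351 CPM in *Pole4*-/- *Trp53*+/+ and 9862 to 12295 CPM in *Pole4*-/- *Trp53*-/- MEFs, and 10 neuron and glia markers, 7 of them tested, to 81.6 to 98.4 and 126 to 148 CPM. Of the latter list *Snap25* was at 0 in 11 libraries, and of the muscle list *Ckm* in 16. The 10 skeletal muscle markers (8 tested) summed to 59.1 to 73.6 and 31.0 to 42.0 CPM, and ribosomal RNA genes took 7.11% to 42.5% and 24.7% to 30.04% of the counts. With the ribosomal RNA share as a covariate 5 members were again called (6605 of all genes, against 6699 without it), *Psat1* at a log2 difference of 0.84 and *Ddit3* at -0.78. The part of the marker lists in the result was not tested.

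**Figure D2:**
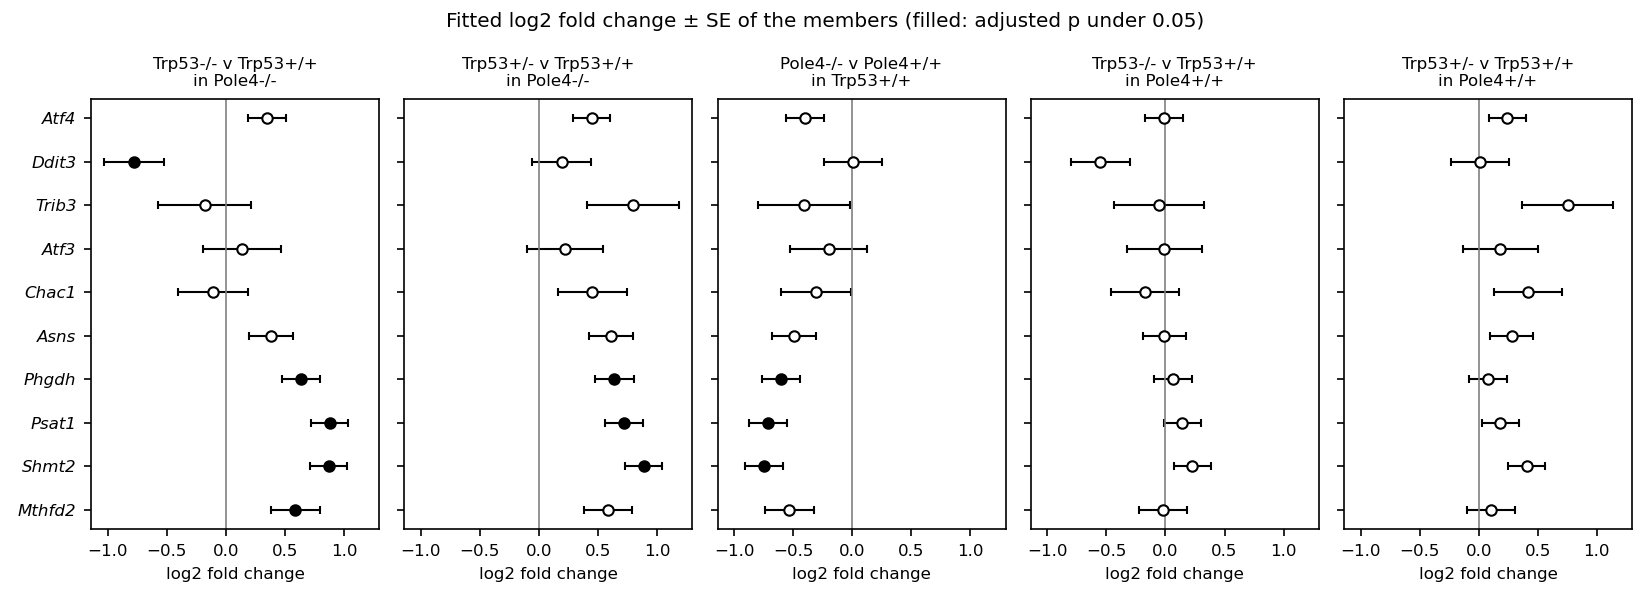
Fitted log2 fold change ± SE (x axis) of each member (y axis) in 5 comparisons, one per panel, with filled points where the adjusted p over all genes was under 0.05. The 5 enzymes lie above 0 in both *Trp53* comparisons among *Pole4*-/- MEFs and below 0 for *Pole4*-/- against *Pole4*+/+ in *Trp53*+/+ MEFs, panels that all use the same 3 *Pole4*-/- *Trp53*+/+ libraries.

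Other genes of the pathway were followed in lists. In the same comparison, 14 of 20 cytosolic aminoacyl-tRNA synthetases, which charge tRNAs with amino acids, were higher and none lower (median log2 fold change 0.42, against -0.02 over all genes tested). The lowest p among them were those of *Kars* (log2 fold change 0.79, SE 0.12, adjusted p 0.000176), *Vars* (0.83, SE 0.16, adjusted p 0.000721) and *Hars* (0.66, SE 0.13, adjusted p 0.00109). Of 18 other serine, glycine and one-carbon genes 12 were higher and 2 lower (median 0.58). *Shmt1*, the cytosolic counterpart of *Shmt2*, rose by 1.98 on the log2 scale (SE 0.25, adjusted p 2.81e-05) and *Tyms* by 1.35 (SE 0.15, adjusted p 1.48e-05). *Tyms* encodes thymidylate synthase, and its transcription is known to rise as cells enter S phase. *Psph*, the phosphatase that completes serine synthesis, differed by 0.41 on the log2 scale (SE 0.28) and did not pass the test (adjusted p 0.258). Among 10 amino acid transporters 5 were higher and none lower (median 0.37), including *Slc38a1* (0.51, SE 0.10), *Slc1a5* (0.56, SE 0.14) and *Slc7a5* (0.62, SE 0.17), with adjusted p of 0.000721, 0.00412 and 0.00838.

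Of 15 other ATF4 targets 6 were lower, 1 was higher and 8 were not called (median -0.61). Each of these list counts stands beside a background of 21.8% of all genes called higher and 20.8% lower. *Sesn2*, a sestrin that is also a TRP53 target, fell to 18.3 ± 5.57 CPM from a mean of 55.1 ± 2.83 CPM, a log2 difference of -1.58 (SE 0.21, adjusted p 5.00e-05). *Nupr1* and *Atf5*, stress-responsive transcriptional regulators, had log2 fold changes of -1.04 (SE 0.25, adjusted p 0.00348) and -0.74 (SE 0.19, adjusted p 0.00508). Of 7 genes for eIF2alpha itself, its kinases and its phosphatase subunits 4 were higher and 2 lower (median 0.17). *Eif2s1*, which encodes eIF2alpha, was higher (0.77, SE 0.16, adjusted p 0.00168), as was the phosphatase subunit *Ppp1r15b* (0.44, SE 0.10, adjusted p 0.00222), whereas *Eif2ak3*, which encodes the kinase PERK, was lower (-0.97, SE 0.22, adjusted p 0.00261). Among 12 chaperones and other genes of the unfolded protein response none was higher and 4 were lower (median -0.18), including *Dnajb9* (-0.75, SE 0.13), *Edem1* (-0.31, SE 0.08) and *Pdia4* (-0.30, SE 0.11), with adjusted p of 0.000467, 0.00902 and 0.0376.

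**Figure D3:**
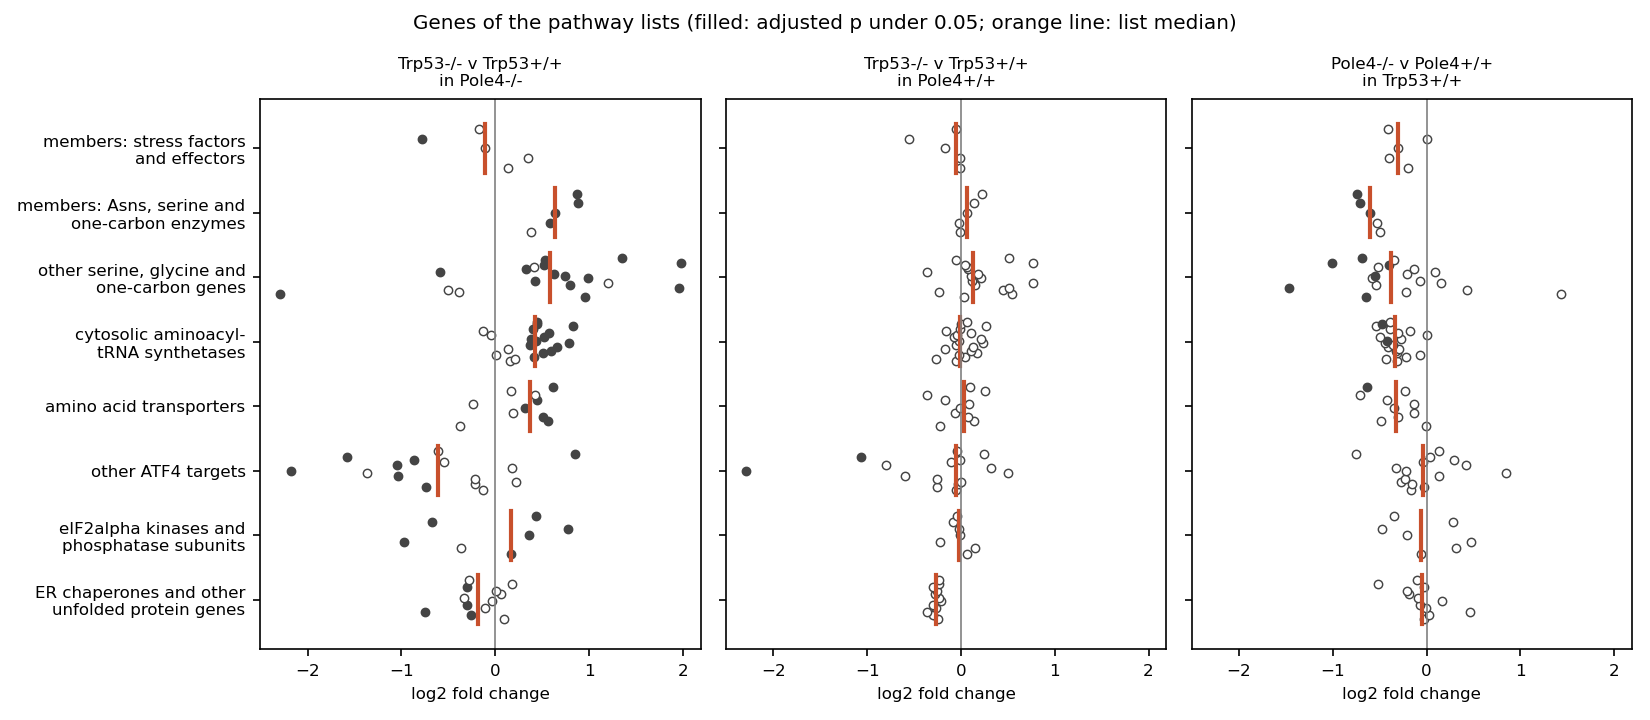
Fitted log2 fold change (x axis) of each gene of 8 lists (y axis) in 3 comparisons, with filled points where the adjusted p was under 0.05 and an orange line at the list median. In the left panel the median is 0.64 for the enzymes among the members and -0.61 for the other ATF4 targets, and in the middle panel, for loss of *Trp53* in *Pole4*+/+ MEFs, 2 points of all lists are filled.

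The same question was asked of *Trp53* heterozygosity in *Pole4*-/- MEFs. *Shmt2*, *Psat1* and *Phgdh* were higher in *Pole4*-/- *Trp53*+/- than in *Pole4*-/- *Trp53*+/+ MEFs, by 1.85-fold, 1.65-fold and 1.56-fold. All 10 members had log2 fold changes above 0, and 9 of 10, all but *Atf3*, had every *Trp53*+/- library above every *Trp53*+/+ library, as did 21.4% of all genes. The 3 called members compare with 5.12% of all genes called (2.96% higher). *Shmt2* stood at 141, 173 and 125 CPM in the *Trp53*+/- libraries (log2 fold change 0.89, SE 0.16, adjusted p 0.0120), *Psat1* at 288, 339 and 242 CPM (0.72, SE 0.16, adjusted p 0.0256) and *Phgdh* at 219, 252 and 168 CPM (0.64, SE 0.16, adjusted p 0.0388). Replicate 2 was the highest library of this genotype for all 3.

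*Trib3*, *Chac1* and *Ddit3* also lay above the *Trp53*+/+ libraries here. *Trib3* stood at 36.1, 40.4 and 36.6 CPM (log2 fold change 0.80, SE 0.39), *Chac1* at 21.0, 25.6 and 19.2 CPM (0.45, SE 0.29) and *Ddit3* at 27.9, 26.2 and 31.8 CPM (0.19, SE 0.25). None of these passed the test, with adjusted p of 0.212, 0.344 and 0.653. *Asns* (0.61, SE 0.18), *Atf4* (0.44, SE 0.16) and *Mthfd2* (0.58, SE 0.21) had adjusted p of 0.0625, 0.101 and 0.0992. Without replicate 2 of the *Trp53*+/- libraries, or without replicate 2 or 3 of the *Pole4*-/- *Trp53*+/+ libraries, no member was called, and without *Pole4*-/- *Trp53*+/+ replicate 1 there was 1. The call of *Phgdh* was lost in 8 of 18 fits that left out 1 library. With log2 *Xist* as a covariate 1 member was called, *Shmt2* (0.85, adjusted p 0.0383), and 101 of all genes, against 805 without it. In that fit *Psat1* (log2 fold change 0.74) and *Phgdh* (0.66) had adjusted p of 0.0674 and 0.0888. The compared genotypes held 2 female libraries and 1 male, and 1 female and 2 male. The female libraries alone leave 1 *Pole4*-/- *Trp53*+/+ library. Their log2 fold changes were 0.85 for *Shmt2*, 0.76 for *Psat1* and 0.73 for *Phgdh*. Without *Pole4*+/+ *Trp53*-/- replicate 1 or 2, libraries outside the comparison that share in the estimate of the spread, 6 members were called. Over all genes, calls ran from 17 to 3191 with 1 library left out.

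Counts of list genes called higher stand here beside 2.96% of all genes. Among the lists, 6 of 20 synthetases were higher (median 0.40, over all genes -0.01). *Wars* was at 0.60 on the log2 scale (SE 0.12, adjusted p 0.0185), *Lars* at 0.48 (SE 0.11, adjusted p 0.0317) and *Nars* at 0.56 (SE 0.14, adjusted p 0.0388). The transporters *Slc1a5* (0.64), *Slc7a5* (0.75) and *Slc38a1* (0.38) were higher, 3 of 10. Of the other serine, glycine and one-carbon genes 5 of 18 were higher, led by the methyl-cycle enzyme *Ahcy* (0.66), the mitochondrial folate enzyme *Mthfd1l* (0.54) and the mitochondrial serine carrier *Sfxn1* (0.39). *Psph* stood at 25.7 ± 7.23 against 14.5 ± 0.806 CPM (log2 fold change 0.83, SE 0.28, adjusted p 0.0898). *Stc2*, a secreted glycoprotein, was the called gene among the 15 other ATF4 targets (1.41, SE 0.31, adjusted p 0.0256). Of the eIF2alpha genes *Ppp1r15b* was higher (0.36), and of the unfolded protein genes *Dnajb9* was lower (-0.52).

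Loss of *Pole4* was compared in each *Trp53* background. In *Trp53*+/+ MEFs, *Shmt2*, *Psat1* and *Phgdh* were lower in *Pole4*-/- than in *Pole4*+/+ cells, by 1.68-fold, 1.64-fold and 1.52-fold. These 3 called members compare with 3.98% of all genes called (2.7% lower). For 7 of 10 members every *Pole4*-/- library lay below every *Pole4*+/+ library, as for 21.7% of all genes, and *Ddit3*, *Trib3* and *Atf3* overlapped. This comparison and both comparisons above share the *Pole4*-/- *Trp53*+/+ libraries, so the fall here and the rises there are not independent observations.

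*Shmt2* stood at 148, 127.5 and 123 CPM in *Pole4*+/+ *Trp53*+/+ MEFs, above all 3 *Pole4*-/- *Trp53*+/+ libraries (log2 fold change -0.75, SE 0.16, adjusted p 0.0244). *Psat1* stood at 326, 276 and 261 CPM (-0.71, SE 0.16, adjusted p 0.0278) and *Phgdh* at 228, 211 and 184 CPM (-0.60, SE 0.16, adjusted p 0.0497). The lowest of these *Psat1* libraries was well clear of the highest *Pole4*-/- *Trp53*+/+ library, at 181 CPM. *Mthfd2* (-0.53, SE 0.21), *Asns* (-0.49, SE 0.18) and *Atf4* (-0.40, SE 0.16) had adjusted p of 0.127, 0.113 and 0.132. *Atf4* stood at 220.1, 221 and 189 CPM in the *Pole4*+/+ libraries, without overlap. *Chac1* (-0.31, SE 0.29), *Trib3* (-0.41, SE 0.39) and *Atf3* (-0.20, SE 0.33) did not pass, and *Ddit3* had the smallest log2 fold change of the members, 0.01 (SE 0.25).

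Without any 1 of the *Pole4*-/- *Trp53*+/+ libraries, or without replicate 1 or 2 of the *Pole4*+/+ *Trp53*+/+ libraries, no member was called. Over all genes, calls ran from 8 to 3222 with 1 library left out. The call of *Phgdh* was lost in 11 of 18 fits that left out 1 library, 6 of which left out libraries of other genotypes. With log2 *Xist* as a covariate no member was called, but 0 of all genes tested were, against 626 without it. This loss is therefore not particular to the members. The log2 fold changes of *Shmt2*, *Psat1* and *Phgdh* were -0.69, -0.74 and -0.64 in that fit. The *Pole4*+/+ libraries compared were 3 female, and the *Pole4*-/- libraries 1 female and 2 male. Fibroblast markers summed to 11757 to 15423 CPM in *Pole4*+/+ and 16327 to 20351 CPM in *Pole4*-/- cells, and ribosomal RNA genes took 5.81% to 11.2% and 7.11% to 42.5% of the counts. With the ribosomal RNA share as a covariate 6 members were called instead of 3, while the genes called over the whole table rose from 626 to 1896. *Psat1* and *Shmt2* then differed by -0.81 and -0.80 on the log2 scale. The part of the markers in this result was not tested. Of the lists, *Slc7a5* (-0.63, 1 of 10 transporters), *Wars* and *Lars* (-0.47 and -0.43, 2 of 20 synthetases) and 6 of 18 one-carbon genes were lower, among them *Tyms* (-0.69) and *Mthfd1l* (-0.55), and no gene of any list was higher. These list counts stand beside 2.7% of all genes called lower. None of the other ATF4 targets, eIF2alpha genes or unfolded protein genes was called. For *Psph* the log2 difference was -0.51 (SE 0.28), with an adjusted p of 0.257.

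In *Trp53*+/- MEFs no member was called between *Pole4* genotypes by edgeR, DESeq2 or limma voom, which called 0.00637%, 0.248% and 1.57% of all genes, and none had an unadjusted p under 0.05 in edgeR, as 5.51% of all genes had. In *Trp53*-/- MEFs the members called were again 0 by each tool, with 0.00637%, 0.185% and 0.00637% of all genes called, and 0 had an unadjusted p under 0.05 in edgeR, against 10.4% of all genes. *Psat1* had log2 fold changes of -0.17 (SE 0.16) in *Trp53*+/- and 0.03 (SE 0.16) in *Trp53*-/- MEFs, and *Shmt2* -0.27 (SE 0.16) and -0.10 (SE 0.16). *Ddit3* had 0.19 (SE 0.25) and -0.22 (SE 0.25). Only *Trib3* had groups that did not overlap, at 36.1 to 40.4 CPM in *Pole4*-/- against 44.0 to 52.5 CPM in *Pole4*+/+ cells of *Trp53*+/- genotype (log2 difference -0.37, SE 0.38), as 6.83% of all genes had below.

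In *Pole4*+/+ MEFs loss of *Trp53* called no member by edgeR, DESeq2 or limma voom, which called 4.6%, 8.27% and 18.8% of all genes. At an unadjusted p under 0.05, which 19.0% of all genes had in edgeR, there was 1 member, *Ddit3*, at 19.5, 21.8 and 9.05 CPM in *Trp53*-/- against 27.2, 19.7 and 27.8 CPM in *Trp53*+/+ MEFs (log2 fold change -0.55, SE 0.25, p 0.0413, adjusted p 0.238). The groups overlapped for all 10 members, whereas 16.5% of all genes had groups that did not overlap. *Psat1* stood at 249, 405 and 299 CPM in these *Trp53*-/- libraries (log2 fold change 0.14, SE 0.16, adjusted p 0.704) and *Shmt2* at 118, 193 and 155 CPM (0.23, SE 0.16, adjusted p 0.494). Replicate 2 was the highest of the 3 libraries for all 10 members except *Trib3*. The only called genes of the lists were *Gdf15* (-2.29, SE 0.53, adjusted p 0.0208), a stress cytokine, and *Sesn2* (-1.06, SE 0.20, adjusted p 0.00715), both also known TRP53 targets and both lower.

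*Trp53* heterozygosity in *Pole4*+/+ MEFs also called no member by edgeR, DESeq2 or limma voom, which called 0.904%, 2.55% and 7.11% of all genes. In edgeR 1 member, *Shmt2*, had an unadjusted p under 0.05, as had 10.2% of all genes. It stood at 185, 177 and 167 CPM in *Trp53*+/- against 148, 127.5 and 123 CPM in *Trp53*+/+ MEFs, without overlap (log2 fold change 0.41, SE 0.16, p 0.0201, adjusted p 0.327). *Trib3* stood at 52.5, 44.0 and 49.3 CPM against 33.1, 19.4 and 33.9 CPM, also without overlap, and differed by 0.75 on the log2 scale (SE 0.38, adjusted p 0.557). *Atf4* and *Chac1* were the other members whose groups did not overlap, so that 4 of 10 lay wholly above, as did 10.2% of all genes. These *Trp53*+/- libraries are all male and the *Trp53*+/+ libraries all female, so that sex and *Trp53* genotype cannot be told apart here. Summed marker levels did not overlap either, at 15507 to 20172 against 11757 to 15423 CPM for fibroblast, 23.1 to 31.7 against 45.9 to 73.7 CPM for skeletal muscle and 98.9 to 126 against 68.9 to 88.3 CPM for neuron and glia markers, and their part in these values was not tested.

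An interaction term asked whether the effect of losing *Trp53* differed between *Pole4*-/- and *Pole4*+/+ MEFs. No member was called by edgeR (0.331% of all genes were), and 3 had an unadjusted p under 0.05 (28.3% of all genes). DESeq2 called 2 members, *Psat1* and *Shmt2* (10.7% of all genes), and limma voom called 1, *Psat1* (7.85%). The differences of log2 fold change, *Pole4*-/- minus *Pole4*+/+, were 0.74 for *Psat1* (SE 0.22, p 0.00462, adjusted p 0.0721), 0.65 for *Shmt2* (SE 0.22, p 0.0107, adjusted p 0.0914), 0.57 for *Phgdh* (SE 0.23, p 0.0240, adjusted p 0.124) and 0.61 for *Mthfd2* (SE 0.29, p 0.0523, adjusted p 0.180). *Ddit3* had a difference of -0.22 (SE 0.35). Without *Pole4*+/+ *Trp53*-/- replicate 2, 5 members were called, and without replicate 3 of that group, 1. Over all genes, calls ran from 0 to 3242 with 1 library left out, against 52 with all libraries. For *Trp53* heterozygosity, a contrast added after the data had been seen, no member was called by edgeR (0.0% of all genes) or DESeq2 (0.172%), and limma voom called 1, *Psat1* (6.51%). In edgeR 3 members had an unadjusted p under 0.05, *Psat1*, *Phgdh* and *Shmt2*, as had 10.1% of all genes.

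The members were also compared with each other across the 18 libraries as log2 CPM, as a description of libraries that share depth and preparation. Taken as deviations from the mean of each genotype, *Atf4*, *Asns*, *Phgdh*, *Psat1*, *Shmt2* and *Mthfd2* had Pearson's r of 0.82 to 0.97 with each other (15 pairs, median 0.90). *Ddit3*, *Trib3* and *Chac1* had r of 0.86 to 0.94 (3 pairs). Between these sets, which were formed after the values had been seen, r ran from 0.07 to 0.73 (18 pairs, median 0.42), and *Atf3* had r of 0.32 to 0.58 with the other 9. For example, replicate 3 was the lowest *Pole4*-/- *Trp53*-/- library for *Ddit3*, *Trib3* and *Chac1*, at 10.1, 8.62 and 8.02 CPM, and also for *Atf4* and all 5 enzymes. In *Pole4*+/+ *Trp53*-/- MEFs replicate 3 was again the lowest for *Ddit3*, *Trib3* and *Chac1*, at 9.05, 12.1 and 9.62 CPM, whereas replicate 1 was the lowest for *Atf4* and all 5 enzymes.

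**Figure D4:**
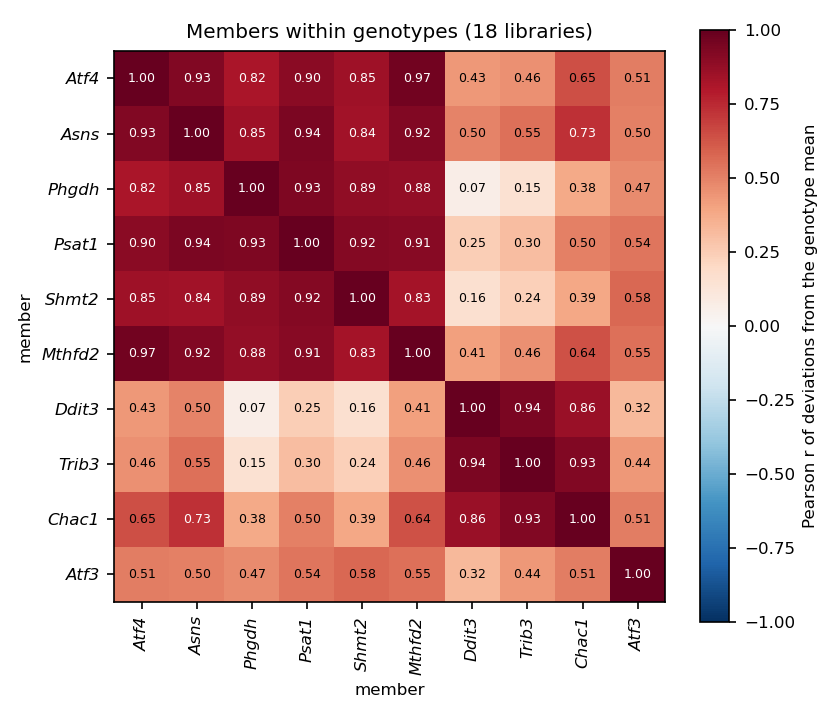
Pearson's r between the members (both axes) over the 18 libraries, computed on log2 CPM after subtracting each genotype's mean, with colour from -1 (blue) to 1 (red). *Atf4* and the 5 enzymes form a block of 0.82 to 0.97, *Ddit3*, *Trib3* and *Chac1* a block of 0.86 to 0.94, and *Atf3* is at 0.58 or below with every other member.

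Over the levels in all 18 libraries, the genes outside the members whose log2 CPM was most like that of *Atf4* were *Xpot* (r = 0.94), the tRNA exporter exportin-t, *Ldha* (0.94), lactate dehydrogenase A, *Eif4ebp1* (0.93), an inhibitor of cap-dependent translation, *Kctd15* (0.92) and *Gna13* (0.92). Those most like *Psat1* were *Mthfd1l* (0.97), *Eif3c* (0.97), a subunit of a translation initiation factor, *Rpia* (0.95), an enzyme of the pentose phosphate pathway, *Ddi2* (0.95) and *Hspa9* (0.95), a mitochondrial chaperone. *Mthfd1l* completes the mitochondrial folate pathway that *Shmt2* and *Mthfd2* begin.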

How the data were processed

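RNA-seq libraries of passage 1 MEFs of 6 genotypes, 3 each, were analysed. The authors extracted RNA, prepared libraries with the Ovation RNA-Seq System and sequenced paired ends. After trimming by Trim Galore, alignment to GRCm38 used STAR 2.5.2 and counting per gene used RSEM 1.3.0, per the submitters' processing notes and the study's methods. The deposited values are RSEM's expected counts, before normalization. A read matching more than 1 gene is shared out by RSEM, so values of genes with near-identical copies are less certain. Of the values 6.14% were not whole, and all were rounded.

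Identifiers were matched to GENCODE's annotation of GRCm38 (51719 of 51912). In R 4.3.3, edgeR 4.0.16 fitted 1 mean per genotype over the 18 libraries (12 residual degrees of freedom) after filterByExpr and TMM scaling, with robust quasi-likelihood F-tests. A gene was called where the Benjamini-Hochberg adjusted p over the 15710 genes tested was under 0.05. The SE is the log2 fold change divided by the square root of F. Levels are TMM-scaled CPM, and correlations used log2 CPM with a prior count of 2. Libraries were called female above 1000 counts of *Xist*.

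The members and lists were chosen with earlier results of these data known. Named genes are the members, up to 3 called genes with the lowest p per other list and comparison, *Psph*, and the 5 genes most correlated with *Atf4* and with *Psat1*; 1 gene that this rule names is not reported here. Alternatives were DESeq2 1.42.0, limma 3.58.1 voom with quality weights, DESeq2-type size factors, library totals, no filter, only the libraries compared, the replicate number as a block, *Xist* or ribosomal RNA as covariates, leaving out each library, and, chosen after seeing the data, female libraries only. Among the 7 comparisons of 2 groups, deviations of same-numbered libraries correlated above 0.1 in every pair for 1, between *Pole4* genotypes in *Trp53*+/- MEFs (0.261 to 0.497), where the numbers were taken as pairs. No libraries were repeats of each other (chi-square per degree of freedom at least 18.8).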

Additional observations from a re-analysis of the deposited data

How the results depend on the processing

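Alternative settings gave 978 values for 35 results of single members. *Atf3*, and the *Pole4* comparisons in *Trp53*+/- and *Trp53*-/- MEFs, were not among these results, so reversals there are not counted. Of the 978 values 860 kept their direction and side of the threshold, 62 lost and 52 gained significance, and 4 reversed. The reversals were *Chac1* for loss of *Trp53* in *Pole4*-/- MEFs under limma voom (0.00507) and without *Pole4*-/- *Trp53*-/- replicate 3 (0.19; range over libraries left out -0.38 to 0.19), *Trib3* without the same library (0.17; range -0.67 to 0.17), and *Psat1* for loss of *Trp53* in *Pole4*+/+ MEFs without *Pole4*+/+ *Trp53*-/- replicate 2 (-0.076; range -0.076 to 0.26). None of these values had passed the test, and the cause was not tested.

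The counts of members called depended on the setting. For loss of *Trp53* in *Pole4*-/- MEFs (5) the female libraries alone gave 0, and leaving out 1 library gave 3 to 7. For *Trp53* heterozygosity in *Pole4*-/- MEFs (3), voom, library totals and the ribosomal RNA covariate each gave 6, the compared libraries alone 8, *Xist* as a covariate 1 and the female libraries 0, and leaving out 1 library 0 to 6. For loss of *Pole4* in *Trp53*+/+ MEFs (3), voom, library totals, the compared libraries alone and the ribosomal RNA covariate each gave 6, *Xist* and the female libraries 0, and leaving out 1 library 0 to 3. The *Trp53*-/- interaction (0) gave 2 with DESeq2, 1 with voom and 0 to 5 with 1 library left out, and that for *Trp53* heterozygosity (0) gave 1 with voom. Library totals moved the log2 fold change of the median gene by over 0.1 in these comparisons, to 0.29 for *Trp53* heterozygosity in *Pole4*-/- MEFs, -0.28 and -0.44 for loss of *Pole4* in *Trp53*+/+ and *Trp53*-/- MEFs, -0.15 for the *Trp53*-/- interaction and 0.31 for that of heterozygosity, beside which *Psat1* stood at 1.01 in the first and -1.01 in the second. The female libraries hold 1 of *Pole4*-/- *Trp53*+/+, assumed to vary like the other groups, and fewer degrees of freedom, so their 0 says little of stability.

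Counts over all genes also differed by more than 1.5 times. Loss of *Trp53* in *Pole4*+/+ MEFs called 723 genes by edgeR, 1300 by DESeq2, 2946 by voom, 192 with library totals and 90 with the compared libraries alone, and in *Pole4*-/- MEFs library totals gave 3722 against 6699. *Trp53* heterozygosity in *Pole4*+/+ MEFs gave 142 by edgeR, 401 by DESeq2, 1117 by voom, 39 with totals, 217 with the compared libraries and 52 with *Xist*, and 17 to 374 with 1 library left out. In *Pole4*-/- MEFs heterozygosity gave 805 by edgeR, 1632 by DESeq2, 3862 by voom, 2163 with totals, 2682 with the compared libraries, 1848 with ribosomal RNA and 101 with *Xist*. Loss of *Pole4* in *Trp53*+/+ MEFs gave 626, 1503, 5229, 2244, 3358, 1896 and 0 in the same order, and the *Trp53*-/- interaction 52 by edgeR, 1678 by DESeq2, 1234 by voom, 252 with DESeq2-type size factors, 339 without a filter, 548 with the replicate block, and 0 with library totals, the compared libraries alone, *Xist* or ribosomal RNA. With 1 library left out the counts ran from 325 to 2700 for loss of *Trp53* in *Pole4*+/+ MEFs and from 5108 to 7595 in *Pole4*-/- MEFs, from 17 to 3191 for heterozygosity in *Pole4*-/- MEFs, from 8 to 3222 for loss of *Pole4* in *Trp53*+/+ MEFs and from 0 to 3242 for the interaction, so the background shares vary as widely.

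With the replicate number as a block the counts were 6 for loss of *Trp53* in *Pole4*-/- MEFs (*Atf4* added, adjusted p 0.0441), 4 for *Trp53* heterozygosity there (*Asns* added, adjusted p 0.0395), 3 for loss of *Pole4* in *Trp53*+/+ MEFs and 0 in every other comparison and interaction, including the pairing taken as real, between *Pole4* genotypes in *Trp53*+/- MEFs.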
